A study of Mus musculus with 15 samples.

Results

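Fatty acid synthesis and desaturation genes were described as a group of 6: Acaca, Fasn, Elovl6, Scd1, Scd2 and Srebf1. They were chosen by name, and each was read from a probe set assigned to that gene alone. They make up 6 of the 19938 genes and 7 of the 35556 probe sets of the table. Only Acaca had several probe sets of its own, and the brighter of its 2 was used. All 6 were measured on every array, with no filter on low values. Expression was measured in mouse ventral prostate epithelial cells of the FVB strain on 15 arrays, 3 in each of 5 groups. Each of 4 groups held stable lines, 3 lines per oncogene, made by transducing primary epithelial cultures with c-myc (Myc), neuT (NeuT), ha-ras (Ras) or v-src (Src). The control group held primary cultures of the same epithelium with no transduced gene. The lines grew in DMEM with fetal bovine serum, and the controls in a medium for primary prostate epithelium until a switch to the serum medium the night before harvest, so oncogene, establishment as a line and culture history cannot be told apart in a comparison with control. Pairs of line groups share the medium. Nothing in the labels says whether the 3 control arrays came from separate animals, and the p-values cover no more than the scatter among the arrays at hand, part of which may be technical. Whether a line is a single clone is not stated either.

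Fatty acids are built from acetyl-CoA. Acaca, acetyl-CoA carboxylase, makes the malonyl-CoA building block in the committed step, Fasn, fatty acid synthase, assembles palmitate from it, and Elovl6 lengthens palmitate to stearate. Scd1 and Scd2, stearoyl-CoA desaturases of the endoplasmic reticulum, put a double bond into these saturated chains. Srebf1 encodes SREBP-1, a membrane-held transcription factor that is cleaved to reach the nucleus, where it raises the transcription of the other genes in lipogenic tissues such as liver. The pathway is often raised in prostate cancer.

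The enzymes did not move as one block. With all arrays, Acaca, Fasn and Elovl6 were called higher than in control in the lines labelled Myc, NeuT and Src, by 1.46- to 3.08-fold. No member was then called in either direction in the Ras lines. Scd1 went the other way in the Myc lines, where it was 13.0-fold lower, while its paralog Scd2 was 1.82-fold higher in the same lines. Scd1 was also called lower in Src lines, by 2.43-fold. Without control array 3, described below, the calls of Acaca, Fasn and Scd1 in Src and Scd2 in Myc lines were lost. Elovl6 was then called higher in Ras lines, and the log2 fold change of Scd1 in Myc lines was -3.29 in place of -3.70. Srebf1 stayed within 1.04- to 1.25-fold of control in every line group.

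With all arrays, 4 of the 6 genes were called higher and 1 lower in the Myc lines, where 15.9% of all genes were called higher and 12.7% lower. In the NeuT lines 5 were higher and 0 lower, against 15.2% and 11.6% of all genes. In the Ras lines 0 were higher and 0 lower, against 13.3% and 14.2%. In the Src lines 3 were higher and 1 lower, against 14.2% and 12.2%. A gene was called at an adjusted p under 0.05 in limma, with Benjamini-Hochberg adjustment over all 19938 genes. The median log2 fold change of the 6 was 0.99 in Myc, 0.74 in NeuT, -0.11 in Ras and 0.54 in Src lines, where the median of all genes was 0.03, 0.02, 0.02 and 0.06. The 4 comparisons share the same control arrays.

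Control array 3 was unlike its group, and 5 of these 8 counts moved when it was left out. It carried kidney tubule transcripts: the mean level of 10 of 10 listed kidney genes was 9.59 on it and 5.69 to 5.89 on the other 14 arrays, with Kap, an androgen-regulated kidney transcript, at 12.10 against a mean of 4.80 on the other controls. On that array Scd1 was 1.22 and Elovl6 0.59 above the mean of the other controls (log2), and Scd2 was 0.67, Acaca 0.60, Fasn 0.55 and Srebf1 0.32 below it. Without it, 3 members were higher and 1 lower in Myc lines (all genes: 14.4% and 13.3%), 4 higher and 0 lower in NeuT lines (13.5% and 11.8%), 1 higher and 0 lower in Ras lines (12.1% and 14.6%) and 1 higher and 0 lower in Src lines (11.6% and 13.1%). The calls lost were Scd2 in Myc, Srebf1 in NeuT and Acaca, Fasn and Scd1 in Src lines, and Elovl6 in Ras lines was gained.

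Other features of the arrays moved with the groups. The transduced genes were read where the table allowed it. Erbb2, the mouse counterpart of the rat gene whose activated form is neuT, was at 9.13, 9.88 and 9.50 in NeuT lines, against 7.79, 7.77 and 7.84 in controls, a log2 fold change of 1.70 ± 0.13 (SE, adjusted p = 4.27e-07, limma). Myc itself was lower in the lines labelled Myc, at 8.81, 8.60 and 8.94, against 9.92, 9.82 and 9.38 in controls (-0.92 ± 0.19, adjusted p = 0.00207, limma). This value cannot check the label either way, since the probe set may not read the introduced c-myc. Directions below are those of the lines labelled Myc. Src was at 7.08, 7.07 and 7.10 in Src lines, against 7.14, 7.15 and 6.82 in controls (0.05 ± 0.09, adjusted p = 0.743, limma, and -0.06 without control array 3). Whether these probe sets read the introduced neuT, c-myc and v-src is not known, and Hras had no probe set of its own here.

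The cultures were checked against cell type markers. The mean level of the 8 measured of 10 prostate epithelial markers was 9.05 to 9.13 in Myc, 8.47 to 8.58 in NeuT, 5.49 to 6.17 in Ras and 9.70 to 9.79 in Src lines, and 9.73 to 10.08 in controls. Of the 8, 0 were called higher and 5 lower in Myc and in NeuT lines. The counts were 0 and 7 in Ras and 2 and 3 in Src lines. Single markers moved apart: Krt5 averaged 5.70 in NeuT and 12.19 in Src lines, against 10.96 in controls. Krt18 averaged 12.25 in both NeuT lines and controls. Pbsn, the androgen-driven secretory marker of mature prostate, was near the bottom of the scale in all groups, with means from 3.07 to 3.22. Adipocytes are rich in the lipogenic enzymes, so their markers were read too: the 9 measured of 10 averaged 5.52 to 5.63 in Myc, 5.57 to 5.70 in NeuT, 5.89 to 6.09 in Ras and 5.61 to 5.65 in Src lines, and 5.54 to 6.09 in controls, with control array 3 highest. Adipoq, which defines mature adipocytes, had group means from 4.22 to 4.33. Fabp4, a carrier of fat and vessel cells, averaged 8.12 in Ras lines, was at 9.13 on control array 3 and averaged 4.77 to 4.89 in the other line groups. Stromal and leukocyte markers, 10 of 10 measured, averaged 6.29 to 6.36 in Myc, 6.33 to 6.40 in NeuT, 6.37 to 6.49 in Ras and 6.58 to 6.64 in Src lines, and 6.72 to 7.07 in controls. Acta2 had the widest gap on that list, at 10.18 in controls, 6.11 in Myc, 6.29 in NeuT, 6.71 in Ras and 8.60 in Src lines. Col1a1 averaged 7.14 in controls and 7.05 to 7.16 in the line groups, and Ptprc 4.96 and 4.80 to 4.84. Col3a1 averaged 6.81 in Ras lines, against 6.27 in controls and 6.22 to 6.31 in the other line groups. Of the 10, 0 were called higher and 1 lower in Myc, NeuT and Src lines, and 1 higher and 2 lower in Ras lines. Without control array 3 the counts were 2 higher and 1 lower in Ras lines and 1 higher and 1 lower in Src lines. The shares of all genes called are those given above. The part of these differences in the levels of the lipogenic genes was not tested, and in bulk RNA fewer cells of a type and less RNA per cell cannot be told apart.

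**Figure D1:**
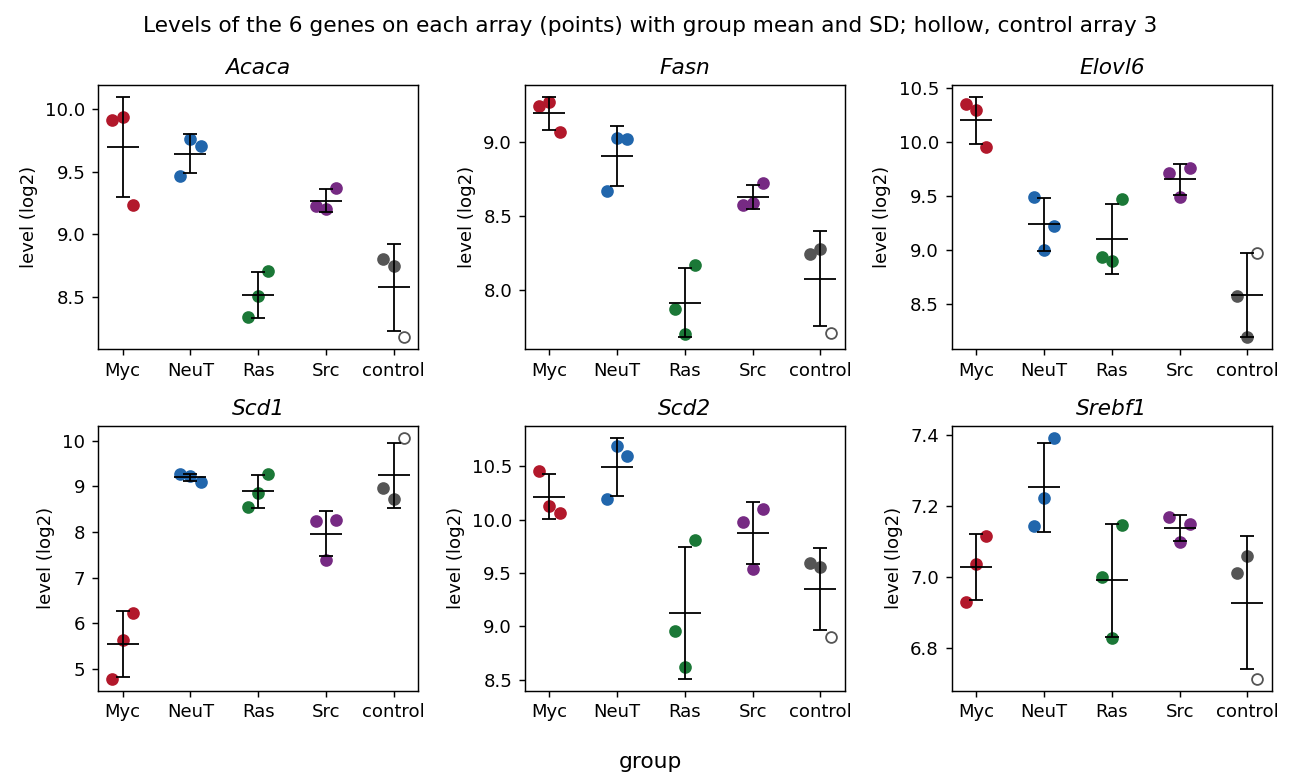
Level of each of the 6 genes (log2 units, each panel on its own axis) on every array, with points for the 3 arrays of a group, a bar at the group mean and whiskers of 1 SD; the hollow point is control array 3. Scd1 sat between 4.79 and 6.22 in the Myc lines, below every other group, while Acaca and Fasn were lowest in Ras lines and controls.

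Acaca, the committed step, had levels of 9.92, 9.94 and 9.23 in Myc lines and 9.47, 9.76 and 9.70 in NeuT lines. It was at 8.33, 8.51 and 8.70 in Ras lines and 9.23, 9.20 and 9.37 in Src lines, against 8.80, 8.74 and 8.17 in controls. All Myc, NeuT and Src arrays were above all controls, and the Ras arrays overlapped them. The log2 fold change was 1.12 ± 0.19 in Myc lines (SE, adjusted p = 0.000417, limma) and 1.07 ± 0.19 in NeuT lines (adjusted p = 0.000677). It was 0.69 ± 0.19 in Src lines (adjusted p = 0.0158), a call that was lost without control array 3 (0.49, adjusted p = 0.0540) or without Src array 3 (0.64, adjusted p = 0.0581). In Ras lines it was -0.06 ± 0.19 (adjusted p = 0.862). The dimmer Acaca probe set gave 1.30 in Myc, 0.87 in NeuT, 0.11 in Ras and 0.76 in Src lines, with the same 3 calls.

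Fasn, which assembles palmitate, was at 9.25, 9.27 and 9.07 in Myc lines and 8.67, 9.03 and 9.02 in NeuT lines. It was at 7.87, 7.71 and 8.17 in Ras lines and 8.58, 8.59 and 8.72 in Src lines, against 8.25, 8.28 and 7.71 in controls. As with Acaca, the Myc, NeuT and Src arrays cleared every control and the Ras arrays did not. Fasn rose in Myc lines by 1.11 ± 0.16 (log2, SE, adjusted p = 7.25e-05, limma), which is 2.16-fold, and in NeuT lines by 0.82 ± 0.16 (adjusted p = 0.00100). In Src lines the fold change was 0.55 ± 0.16 (log2, adjusted p = 0.0177), and that call too was lost without control array 3 (0.37, adjusted p = 0.0605) or Src array 3 (0.50, adjusted p = 0.0645). In Ras lines it was -0.16 ± 0.16 (adjusted p = 0.490) with all controls and -0.35 (adjusted p = 0.0722) without control array 3.

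Acaca and Fasn followed each other over the 15 arrays with Pearson r = 0.959. Elovl6 joined them in the Myc, NeuT and Src calls but followed them less closely, with r of 0.672 with Fasn and 0.641 with Acaca. The 250 bases before the annotated start of these 3 genes are shown side by side (RefSeq, GRCm38.p6, read 5′ to 3′ on the gene's strand). NF-Y boxes, CCAAT or its complement, are in capitals. The Fasn window is chr11:120824548-120824797 on the minus strand, the Acaca window chr11:84195188-84195437 on the plus strand, and the Elovl6 window chr3:129532136-129532385 on the plus strand.
Fasn: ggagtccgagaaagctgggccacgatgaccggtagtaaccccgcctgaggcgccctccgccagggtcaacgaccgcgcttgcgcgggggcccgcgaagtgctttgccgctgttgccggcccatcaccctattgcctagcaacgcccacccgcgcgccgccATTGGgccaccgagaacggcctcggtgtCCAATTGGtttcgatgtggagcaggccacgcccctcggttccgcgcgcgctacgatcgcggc
Acaca: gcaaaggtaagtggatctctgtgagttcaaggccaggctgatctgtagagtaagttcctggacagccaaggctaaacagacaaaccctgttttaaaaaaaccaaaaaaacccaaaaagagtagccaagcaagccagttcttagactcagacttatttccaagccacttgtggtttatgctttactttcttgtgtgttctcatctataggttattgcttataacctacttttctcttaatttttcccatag
Elovl6: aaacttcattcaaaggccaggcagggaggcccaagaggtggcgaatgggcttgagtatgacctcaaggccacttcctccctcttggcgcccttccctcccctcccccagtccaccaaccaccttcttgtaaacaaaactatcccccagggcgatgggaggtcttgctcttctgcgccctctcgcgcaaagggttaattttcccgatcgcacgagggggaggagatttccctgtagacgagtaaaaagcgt
The promoter table matched 4 of the 6 genes, Scd1 and Scd2 excepted. The search covered these windows and the 50 bases after each start on both strands, for the sterol regulatory element TCACNCCAC, the E-box CACGTG, the NF-Y box CCAAT and the GC box GGGCGG. Fasn held 3 NF-Y boxes, whose first bases lie at -90, -62 and -59 from the start, the last pair overlapping. Acaca and Elovl6 held 0 of the 4 motifs. Whether an annotated start is the one used in these cells was not tested. The Acaca window ends in a run of pyrimidines and AG, as an intron does, and may not be a promoter. A window without motifs therefore does not show that the gene's promoter lacks them. Srebf1, with 3 annotated starts on chromosome 11, held NF-Y boxes in 2 windows and GC boxes in 2. No window of these 4 genes held the sterol element or the E-box in the letters searched. Of all 32851 promoter windows of this length, 1.24% held the sterol element, 7.15% the E-box, 37.4% the NF-Y box and 35.7% the GC box.

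Elovl6, the elongase between Fasn and the desaturases, was at 10.35, 10.30 and 9.95 in Myc lines and 9.49, 8.996 and 9.23 in NeuT lines. It was at 8.94, 8.89 and 9.48 in Ras lines and 9.72, 9.49 and 9.76 in Src lines, against 8.58, 8.19 and 8.97 in controls. The Myc and Src arrays lay well above every control, the lowest NeuT array just above the highest control, and the Ras arrays overlapped the controls. Its rise of 1.62 ± 0.20 (log2, SE, adjusted p = 2.70e-05, limma) in Myc lines, 3.08-fold, was its largest, followed by 1.07 ± 0.20 (adjusted p = 0.00125) in Src lines. Neither call was lost on leaving out any single array. In NeuT lines it rose by 0.66 ± 0.20 (adjusted p = 0.0255), a call lost without control array 1 (0.65, adjusted p = 0.0571) or control array 2 (0.46, adjusted p = 0.115), and without NeuT array 1 (0.53, adjusted p = 0.111) or NeuT array 3 (0.66, adjusted p = 0.0640). In Ras lines the fold change was 0.52 ± 0.20 (adjusted p = 0.0713), and without control array 3 it was 0.72 and was called (adjusted p = 0.00960).

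Scd1, the desaturase best known from liver, fat and skin, was at 4.79, 5.63 and 6.22 in Myc lines and 9.27, 9.22 and 9.10 in NeuT lines. It was at 8.54, 8.86 and 9.27 in Ras lines and 8.25, 7.39 and 8.26 in Src lines, against 8.96, 8.72 and 10.06 in controls. Every Myc array was below every other array of the study, and every Src array was below every control, while NeuT and Ras arrays overlapped the controls. In Myc lines Scd1 fell by 3.70 ± 0.38 (log2, SE, adjusted p = 4.48e-06, limma), or 13.0-fold. Without control array 3, where Scd1 was highest, the fold change was -3.29 ± 0.33 (adjusted p = 2.63e-06). All 3 Myc arrays were under 6.47, the median of all gene values, where background was not measured, so the size of this fold change is unsure. In Src lines it was -1.28 ± 0.38 (adjusted p = 0.0217), a call lost without control array 3 (-0.87, adjusted p = 0.0714) or without Src array 2 (-0.99, adjusted p = 0.102). In NeuT and Ras lines the fold changes were -0.05 ± 0.38 (adjusted p = 0.952) and -0.36 ± 0.38 (adjusted p = 0.537), and both turned positive, still without a call, when control array 3 was left out (0.36 and 0.05).

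Scd2, the isoform prominent in brain and in young mice, did not share the drop. It was at 10.45, 10.13 and 10.06 in Myc lines and 10.19, 10.69 and 10.60 in NeuT lines. It was at 8.95, 8.62 and 9.81 in Ras lines and 9.98, 9.54 and 10.10 in Src lines, against 9.59, 9.56 and 8.90 in controls. The Myc and NeuT arrays were above all controls, and the Ras and Src arrays overlapped them. The rise was 1.14 ± 0.27 in NeuT lines (log2, SE, adjusted p = 0.00547, limma) and 0.92 (adjusted p = 0.0185) without control array 3. In Myc lines it was 0.87 ± 0.27 (adjusted p = 0.0270), and the call was lost without control array 3 (0.64, adjusted p = 0.0952), Myc array 1 (0.75, adjusted p = 0.104) or Myc array 2 (0.91, adjusted p = 0.0525). Ras lines had -0.22 ± 0.27 (adjusted p = 0.598) and Src lines 0.52 ± 0.27 (adjusted p = 0.174). The other desaturase paralogs, Scd3 and Scd4, were dim in all groups, with no call in any line and absolute log2 fold changes up to 0.18 for Scd3 and 0.13 for Scd4. Whether probes of the Scd paralogs also read each other's transcripts was not tested.

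Srebf1 was at 6.93, 7.04 and 7.12 in Myc lines and 7.15, 7.22 and 7.39 in NeuT lines. It was at 6.999, 6.83 and 7.15 in Ras lines and 7.17, 7.10 and 7.15 in Src lines, against 7.01, 7.06 and 6.71 in controls. The NeuT and Src arrays were above all controls by a narrow margin, and the Myc and Ras arrays were mixed with them. The 1 call was in NeuT lines, at 0.33 ± 0.11 (log2, SE, adjusted p = 0.0361, limma), and it was lost without control array 3 (0.22, adjusted p = 0.160), NeuT array 2 (0.34, adjusted p = 0.0720) or NeuT array 3 (0.26, adjusted p = 0.158), and with the replicate number as a block (0.33, adjusted p = 0.0520). The fold change was 0.10 ± 0.11 in Myc lines (adjusted p = 0.559), 0.06 ± 0.11 in Ras lines (adjusted p = 0.720) and 0.21 ± 0.11 in Src lines (adjusted p = 0.164). The array reads transcript and not the cleaved, active protein.

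**Figure D2:**
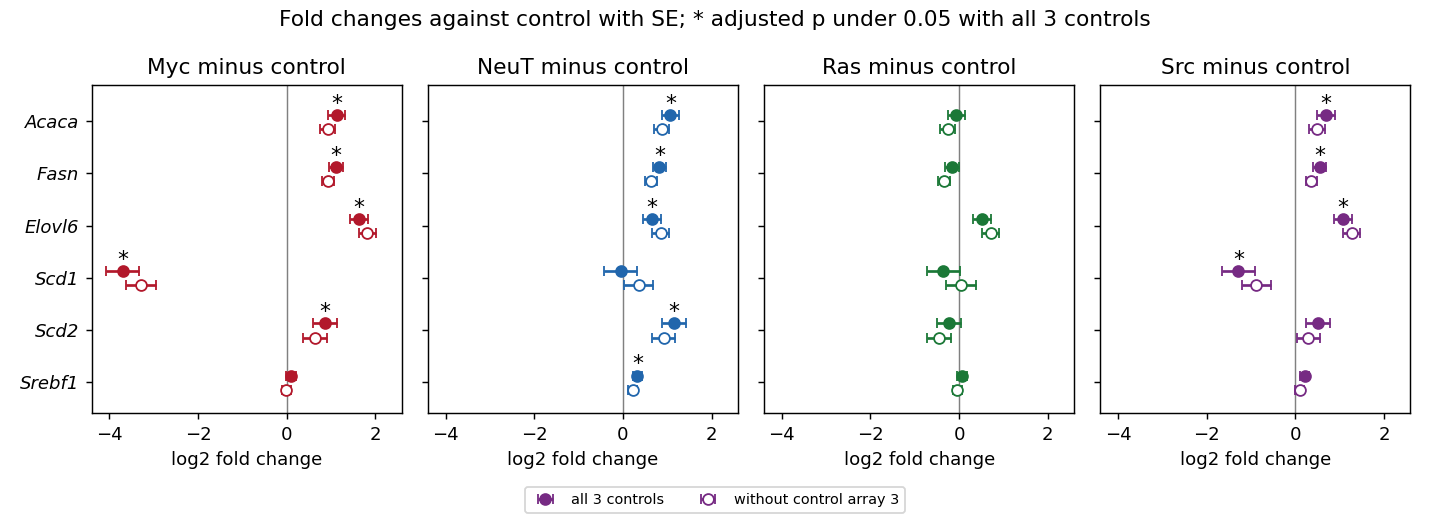
Log2 fold change of each gene against control in the 4 line groups, with SE; filled points use all 3 controls, hollow points leave out control array 3, and a star marks an adjusted p under 0.05 with all controls. Scd1 lies at -3.70 in Myc lines, and no gene carries a star in Ras lines.

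The lines were then set against each other, where the medium was shared and the controls enter the shared estimate of spread but not the difference. By an F test over the 4 line groups, 5 of the 6 genes differed, all but Srebf1, where 42.1% of all genes did. Myc and Ras lines differed in 5 of 6 genes (all genes: 28.4%). Fasn was higher in Myc than in Ras lines by 1.28 ± 0.16 (log2, SE, adjusted p = 2.33e-05, limma), Acaca by 1.18 ± 0.19 (adjusted p = 0.000288), Elovl6 by 1.10 ± 0.20 (adjusted p = 0.000757) and Scd2 by 1.09 ± 0.27 (adjusted p = 0.00712). Scd1 had the opposite sign, at -3.34 ± 0.38 in Myc minus Ras lines (adjusted p = 1.11e-05).

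NeuT and Ras lines differed in 3 genes (all genes: 28.1%). Scd2 was higher in NeuT lines by 1.37 ± 0.27 (log2, SE, adjusted p = 0.00144, limma), Acaca by 1.13 ± 0.19 (adjusted p = 0.000416) and Fasn by 0.99 ± 0.16 (adjusted p = 0.000220). Ras minus Src lines had 2 calls (all genes: 26.2%), Acaca at -0.75 ± 0.19 (adjusted p = 0.00955) and Fasn at -0.71 ± 0.16 (adjusted p = 0.00333). Scd2 and Elovl6 were also called between Ras and Src lines without Ras array 3 (-1.09 and -0.74). Acaca and Fasn were lower in Ras lines than in each of the other 3 line groups.

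Myc and NeuT lines differed in 2 genes (all genes: 14.9%), Scd1 at -3.65 ± 0.38 (log2, SE, adjusted p = 1.58e-05, limma) and Elovl6 at 0.97 ± 0.20 (adjusted p = 0.00436) in Myc minus NeuT. Myc and Src lines also differed in 2 (all genes: 18.9%), Scd1 at -2.42 ± 0.38 (adjusted p = 0.000398) and Fasn at 0.56 ± 0.16 (adjusted p = 0.0195). That Fasn call was lost on leaving out Myc array 1 or 2 or Src array 1 or 2 (adjusted p up to 0.0681). NeuT minus Src lines had 1 call (all genes: 20.2%), Scd1 at 1.23 ± 0.38 (adjusted p = 0.0321), lost on leaving out any 1 of the NeuT arrays or Src array 2 (adjusted p up to 0.148). Scd1 was thus lower in Myc lines than in every other line group, and its rank from high to low was control, NeuT, Ras, Src and Myc, in which Src and Myc were the only neighbours that differed with all arrays. Ras and Src, also neighbours, differed without control array 3 (0.92, log2, adjusted p = 0.0292, limma).

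With control array 3 left out of the shared spread, 3 genes differed between Myc and Src (all genes: 22.8%), 4 between NeuT and Ras (all genes: 31.4%) and 5 between Ras and Src lines (all genes: 30.2%). The count stayed at 2 for Myc and NeuT (all genes: 18.5%), 5 for Myc and Ras (all genes: 31.9%) and 1 for NeuT and Src (all genes: 23.7%), so the share of all genes called was higher in each of the 6 pairs.

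**Figure D3:**
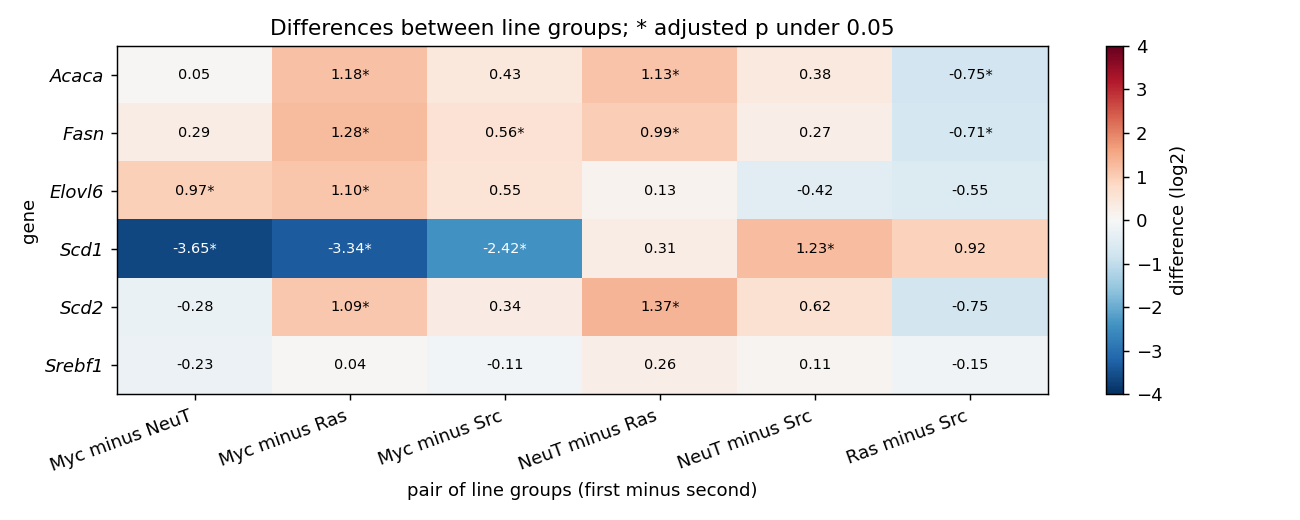
Differences between line groups (log2, first named minus second) for the 6 genes in 6 pairs, coloured from blue (negative) to red (positive), with a star at an adjusted p under 0.05. The Myc columns are deep blue for Scd1, from -3.65 to -2.42, and Acaca and Fasn are starred in each pair that holds Ras.

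In the order of group levels, Acaca and Fasn shared a rank from high to low of Myc, NeuT, Src, control and Ras, in which only the neighbours Src and control differed, and that difference was lost without control array 3, as given above. Scd2 ran NeuT, Myc, Src, control and Ras, Elovl6 ran Myc, Src, NeuT, Ras and control, and Srebf1 ran NeuT, Src, Myc, Ras and control. No neighbours in these 3 orders passed the test with all arrays. For Elovl6 the Myc and Src arrays did not overlap, and that difference of 0.55 (log2, adjusted p = 0.0761, limma) was called without control array 3 (adjusted p = 0.0295), control array 2 (0.0486) or Ras array 3 (0.0491). Elovl6 in Ras lines was also above its neighbour, control, without control array 3 (0.72, adjusted p = 0.00960).

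Across all 15 arrays the genes tracked each other unevenly. Beside Acaca with Fasn, Pearson r was 0.904 for Scd2 with Fasn and 0.897 for Scd2 with Acaca. Scd1 had a negative r with most of them, at -0.748 with Elovl6, -0.657 with Fasn and -0.329 with Scd2. Its levels were 4.79 to 6.22 on the 3 Myc arrays and 7.39 to 10.06 on the others. Control array 3 had high Scd1 beside low Fasn, Acaca and Scd2. No r was computed without the Myc arrays or without control array 3, so these values do not describe the other groups alone. Srebf1 had r of 0.740 with Scd2 and 0.573 with Fasn. These are descriptions, since arrays of a group share their source.

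Among 9721 other genes at or above the median level, those with the highest r over the 15 arrays were Slc29a2 (0.983), Pmm1 (0.967) and Otub1 (0.965) for Fasn. For Acaca they were Pdcd11 (0.976), Ruvbl2 (0.969) and Clns1a (0.966), and for Elovl6 Ccnq (0.968), Tmem186 (0.931) and Nt5c3 (0.896). For Scd1 they were Nbr1 (0.945), Gabarapl2 (0.931) and Pld1 (0.919), for Scd2 Ttll12 (0.960), Rnaseh2a (0.931) and Smarca4 (0.930), and for Srebf1 Plec (0.866), Rap2b (0.855) and Git2 (0.850).

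The rest of the pathway was read from 6 lists. Their counts stand beside the shares of all genes called higher and lower: 15.9% and 12.7% in Myc, 15.2% and 11.6% in NeuT, 13.3% and 14.2% in Ras and 14.2% and 12.2% in Src lines. The shares without control array 3 are those given above. A list with counts near these shares does not stand out. Medians over all genes are given once, with the first list, and hold for each list. Of the 13 measured of 15 regulators of SREBP-1c and lipogenesis, 6 were higher and 2 lower in Myc lines, 5 and 1 in NeuT lines, 0 and 1 in Ras lines and 1 and 2 in Src lines. Their median log2 fold change was 0.31 in Myc, 0.07 in NeuT, -0.10 in Ras and -0.12 in Src lines, beside 0.03, 0.02, 0.02 and 0.06 over all genes. Without control array 3 the medians were 0.27 in Myc, 0.13 in NeuT, -0.10 in Ras and 0.06 in Src lines, where the sign turned and 3 genes were higher. No regulator reached 2-fold with a call. Srebf2, Insig1 and Insig2 are named after their values were seen. Srebf2, the sterol-branch SREBP, was higher in Myc (0.46, log2) and NeuT lines (0.73), with -0.10 in Ras and 0.16 in Src lines. Insig1, which holds SREBPs in the endoplasmic reticulum, was higher in Myc (0.64) and NeuT (0.71) and lower in Src lines (-0.68), with -0.07 in Ras lines, and its Myc call was lost without control array 3 (adjusted p = 0.0647, limma). Its relative Insig2 was lower in Myc (-0.84), NeuT (-0.53) and Src lines (-0.63), with 0.14 in Ras lines.

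Genes that supply acetyl-CoA and NADPH were mixed. Of 11 measured of 12, 2 were higher and 2 lower in Myc lines, 1 and 2 in NeuT, 1 and 5 in Ras and 0 and 2 in Src lines, with medians of -0.05 in Myc, -0.09 in NeuT, -0.39 in Ras and -0.10 in Src lines. Without control array 3 the medians were 0.04 in Myc, -0.05 in NeuT, -0.20 in Ras and -0.01 in Src lines, so the Myc median turned sign. Acly, ATP citrate lyase, which makes cytosolic acetyl-CoA, was higher in Myc (1.19, log2) and NeuT lines (0.78), lower in Ras lines (-0.53) and at 0.01 in Src lines. Me1 and Idh1, both cytosolic sources of NADPH, were lower in every line group: Me1 at -1.28 in Myc, -0.80 in NeuT, -0.73 in Ras and -1.13 in Src lines, and Idh1 at -1.28 in Myc, -1.19 in NeuT, -0.79 in Ras and -0.9998 in Src lines.

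Other elongases and desaturases split by gene. Of 18 measured of 18, 3 were higher and 4 lower in Myc lines, 2 and 4 in NeuT, 3 and 5 in Ras and 4 and 3 in Src lines, with medians of -0.15 in Myc, 0.08 in NeuT, -0.14 in Ras and 0.04 in Src lines. Without control array 3 the medians were -0.05 in Myc, 0.07 in NeuT, -0.0052 in Ras and 0.04 in Src lines. Elovl7, an elongase of long saturated chains, was lower in all 4, at -1.31 in Myc, -1.63 in NeuT, -4.37 in Ras (20.6-fold) and -0.91 in Src lines. Fads2, a desaturase of polyunsaturated fatty acids, was lower in Ras lines (-1.39) and higher in Myc (0.72), NeuT (0.58) and Src lines (0.60), and its NeuT call was lost without control array 3 (adjusted p = 0.0511, limma). Cyb5a, the cytochrome that passes electrons to desaturases, was at -0.65 in Myc, -1.80 in NeuT and -0.88 in Src lines, all called, and at 0.35 in Ras lines, which was called (0.59, adjusted p = 0.00457, limma) only without control array 3. Its reductase Cyb5r3 was lower in Myc (-0.59) and higher in Ras lines (1.10), and Elovl4, which makes very long chains, was higher in Src lines (1.26), with 0.08 in Myc, 0.03 in NeuT and -0.27 in Ras lines.

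Downstream, acyl-CoA activation and glycerolipid synthesis (11 measured of 13) had 2 higher and 1 lower in Myc lines, 4 and 0 in NeuT, 2 and 5 in Ras and 1 and 3 in Src lines, with medians of -0.11 in Myc, 0.09 in NeuT, -0.29 in Ras and -0.18 in Src lines. Without control array 3 the medians were -0.05 in Myc, 0.24 in NeuT, -0.07 in Ras and -0.16 in Src lines, and 4 genes were higher in Myc lines. Plin2, a coat protein of lipid droplets, was higher in NeuT lines (1.33, log2) and lower in Myc (-0.45) and Ras lines (-0.67). In Src lines it was -0.28, and without control array 3 it was -0.45 and called (adjusted p = 0.0119, limma). Agpat3, an acyltransferase of phospholipid synthesis, was lower in Ras (-0.74) and Src lines (-1.26). It averaged 7.75 in Ras and 7.23 in Src lines, against 8.49 in controls and 8.21 in controls without array 3. Uptake and oxidation (14 measured of 16) had 2 higher and 2 lower in Myc, 1 and 2 in NeuT, 2 and 2 in Ras and 2 and 3 in Src lines. Fabp5, a fatty acid carrier of epithelia, was higher in all 4, at 1.34 in Myc, 1.17 in NeuT, 0.75 in Ras and 0.66 in Src lines. Cpt1a, which admits fatty acids to mitochondria for oxidation, was lower in NeuT lines (-1.04). It averaged 6.98 there, against 8.02 in controls and 7.65 in controls without array 3, so the gap was smaller without that array. Fabp4, also on this list and named after its values were seen, was at 1.94 in Ras lines and not called (adjusted p = 0.101, limma), and without control array 3, where it was high, at 3.42 and called (adjusted p = 2.91e-08). The median of that list moved with control array 3: it was -0.33 in Myc, -0.25 in NeuT, -0.28 in Ras and -0.51 in Src lines with it, and 0.00, 0.08, 0.03 and 0.02 without it.

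The sterol branch of the SREBP pathway (6 measured of 8) had 3 higher and 0 lower in Myc lines, 2 and 0 in NeuT, 0 and 4 in Ras and 0 and 1 in Src lines. Its median log2 fold change was 0.62 in Myc, 0.11 in NeuT, -0.82 in Ras and -0.33 in Src lines, and without control array 3 it was 0.47, -0.08, -0.998 and -0.49. Idi1, isopentenyl diphosphate isomerase, was higher in Myc lines (1.57), and Hmgcs1, which makes the HMG-CoA of the mevalonate route, was lower in Ras lines (-1.56). In Ras lines Idi1 was -0.78, and without control array 3 it was -0.9996 and called (adjusted p = 0.0238, limma).

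**Figure D4:**
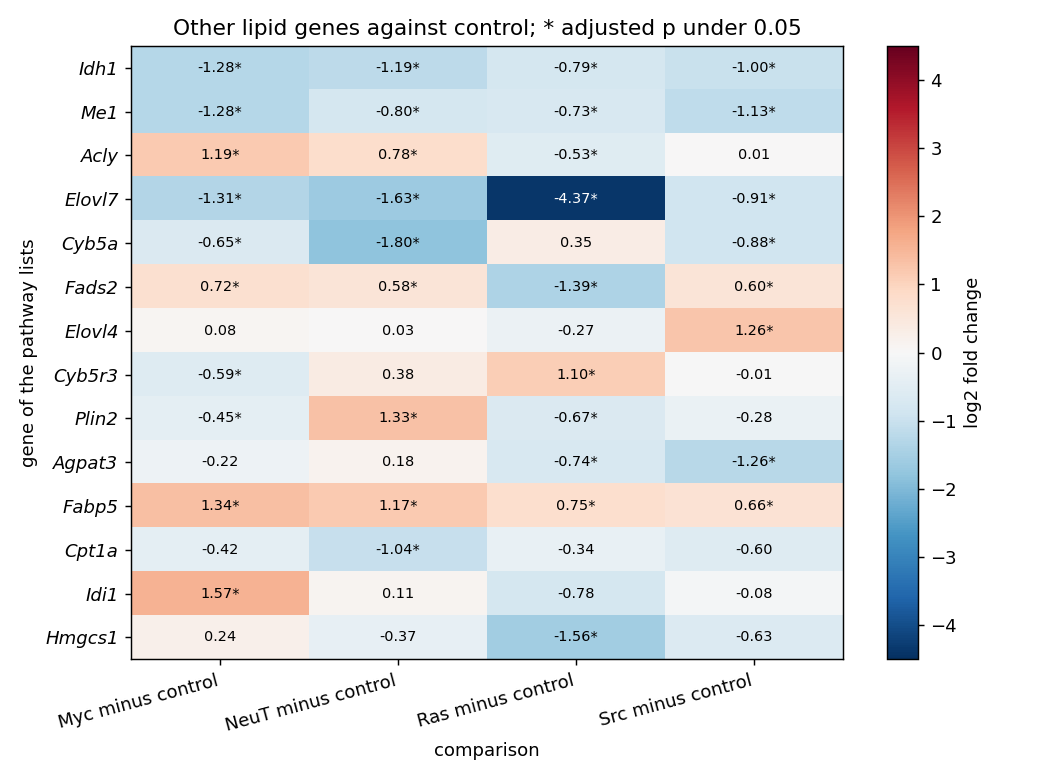
Log2 fold change against control of the 14 listed pathway genes with a call and at least 2-fold in any line group, coloured from blue (lower) to red (higher), with a star at an adjusted p under 0.05. Idh1, Me1 and Elovl7 are blue and starred in all 4 columns, Fabp5 is red and starred in all 4, and Acly and Fads2 are red in Myc and NeuT lines and blue in Ras lines.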

How the data were processed

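RNA preparation used Trizol and WT-Ovation Pico amplification, per the labels' protocols. The authors deposited log2 levels, a scale judged from their range, already brought to a like level across arrays (medians from 6.19 to 6.32). The submitters' processing notes list RMA and Affymetrix Expression Console 1.1 without saying what each did, and the background step is not given in the sources used here. Probe sets with 1 gene (21789 of 35556) were used, and those with several (1621) or none (12146) were not. Of several probe sets of a gene (999 genes) the brightest by mean was taken. Entrez IDs matched 21698 probe sets to the reference annotation.

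In R 4.3.3, limma 3.58.1 (lmFit, eBayes) fitted 5 group means to the 15 arrays together, two-sided, with Benjamini-Hochberg adjustment over all 19938 genes and no fold minimum. The number of arrays limits the precision. Lists got counts and medians only. Pathway genes were named if called with at least 2-fold in any line group, up to 6 a list, and likeness named 3 genes per member. The members, lists and rules were chosen with earlier results of these data known, and the transduced genes were listed later. Alternatives were median centring, quantile normalization, leaving out dim genes, other probe sets, a trended robust variance, array weights, a fit of the compared groups alone, the replicate number as a block, each array left out and a 2-fold minimum. The fit was tested on simulated data. Tables were made with pandas 2.3.3 and numpy 2.4.6 under Python 3.11.15, and plots with matplotlib 3.10.9.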

Additional observations from a re-analysis of the deposited data

Results flagged for a closer look

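The differences from control were not alike in the 4 line groups for 5 of the 6 genes, by the F test over the line groups (limma, adjusted over all genes, of which 42.1% passed). The range of the 4 line group means was 3.65 (log2) for Scd1 (adjusted p = 9.29e-06), lowest in Myc and highest in NeuT lines. It was 1.37 for Scd2 (adjusted p = 0.00439), 1.28 for Fasn (adjusted p = 7.37e-05) and 1.18 for Acaca (adjusted p = 0.000505), each lowest in Ras lines. It was 1.10 for Elovl6 (adjusted p = 0.00169), lowest in Ras and highest in Myc lines. For Srebf1 it was 0.26 (adjusted p = 0.188), which did not pass.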

How the results depend on the processing

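Against control, 8 calls were kept under every alternative but the 2-fold minimum, each left-out array included: Scd1, Fasn, Acaca and Elovl6 in Myc lines, Scd2, Fasn and Acaca in NeuT lines and Elovl6 in Src lines. The 2-fold minimum was applied to counts only, and of these calls Fasn in NeuT lines (1.77-fold) was under it with all arrays. Without control array 3, Fasn (0.93, log2) and Acaca (0.92) in Myc lines were under it too. So were Scd2 (0.92), Acaca (0.87) and Fasn (0.64) in NeuT lines. Every change of sign was in a value called under neither setting. Log2 fold changes that turned sign or crossed the threshold in a single setting were as follows. Median centring gave Scd1 in NeuT 0.0014, Acaca in Ras 0.023 and Elovl6 in Ras 0.60 (now called). Array weights gave Scd1 in NeuT 0.30, Srebf1 in Myc -0.0066 and in Ras -0.021, and called Fasn (-0.34) and Elovl6 (0.61) in Ras. Acaca in Ras was 0.027 by the mean of its probe sets and 0.11 by the dimmer one. Fitting only the groups compared lost Scd1 in Src (-1.28), Elovl6 in NeuT (0.66) and Srebf1 in NeuT (0.33). Without dim genes Elovl6 in Ras (0.52) was called, and quantile normalization called Srebf1 in Src (0.30).

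Counts of members moved as well. Higher in NeuT were 3 with only the groups compared and 2 at 2-fold, and higher in Ras 1 with centring, without dim genes or with array weights, which also gave 1 lower. In Src 1 was higher at 2-fold and 0 lower with only the groups compared. Myc and NeuT differed in 1 at 2-fold, Myc and Src in 4 with array weights and 1 at 2-fold, and NeuT and Src in 0 with quantile normalization or trended variance, 5 with array weights and 4 with only the groups compared. Calls over all genes moved too: NeuT and Src differed in 4019 genes as reported, and in 3686, 3986, 5837 and 5319 in those settings, and Myc and Src in 3777, and in 5128 with array weights. Ras and Src differed in 4 with quantile normalization, without dim genes, with array weights or only the groups compared, and in 0 at 2-fold, beside 6633, 4180 (of 10086 tested), 6050 and 4430 of all genes in the first 4 settings and 5214 as reported. Of all genes, Ras minus control had 2645 higher and 2824 lower, and 3916 and 2245 after centring. It had 2127 and 2313 of 10086 without dim genes, and 2896 and 3407 with array weights. Src minus control had 2823 and 2440, 3968 and 2210 after quantile normalization, and 2270 and 2244 with only the groups compared. NeuT minus control had 3022 and 2317, and 2675 and 1991 with only the groups compared. All genes were not counted at 2-fold, so the 2-fold counts of members have no background beside them.

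Leaving out 1 array in turn, fold changes against control ranged for Scd1 from -0.31 to 0.36 in NeuT, -0.62 to 0.050 in Ras and -1.54 to -0.87 in Src, and for Scd2 from 0.64 to 0.98 in Myc and -0.57 to 0.031 in Ras. They ranged for Fasn from 0.37 to 0.65 in Src, for Acaca from -0.26 to 0.056 in Ras and 0.49 to 0.81 in Src, and for Elovl6 from 0.46 to 0.85 in NeuT and 0.33 to 0.72 in Ras. Srebf1 ranged from -0.0078 to 0.17 in Myc, 0.22 to 0.39 in NeuT and -0.044 to 0.14 in Ras. Between lines, Acaca ranged from -0.069 to 0.28 in Myc minus NeuT and Srebf1 from -0.045 to 0.11 in Myc minus Ras. Counts ranged from 3 to 5 higher in NeuT (3 without NeuT array 3), 0 to 1 higher in Ras, 1 to 3 higher and 0 to 1 lower in Src, and from 1 to 3 different between Myc and Src, 0 to 2 between NeuT and Src and 2 to 5 between Ras and Src. Over all 19938 genes, 2521 to 3180 were higher in NeuT, 2349 to 2652 higher in Ras, and 2129 to 3133 higher and 1933 to 2609 lower in Src. Between lines, 2746 to 4544 of all genes differed for Myc and Src, 2958 to 4716 for NeuT and Src and 4177 to 6021 for Ras and Src.

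Same-numbered arrays deviated together with r from -0.08 to 0.12, so the numbers were not taken as pairs. With the replicate number as a block, Srebf1 in NeuT lines lost its call (0.33, adjusted p = 0.0520, limma). Ras and Src lines then differed in 4 members, and in 5200 of all genes. The cause of these changes was not tested. Signal over background was not measured, which limits values under the median level of 6.47.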
